A study of Homo sapiens with 44 samples.

Results

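Glycolytic enzymes and hypoxia-induced genes were followed as 33 genes across 43 xenografts grown from the VCaP cell line, which comes from human prostate cancer. The genes were chosen by name for their place in these pathways, with earlier results of these data known. They comprise 16 enzymes from hexokinase to lactate dehydrogenase, 4 genes that regulate phosphofructokinase or carry glucose and lactate, 12 genes known to be induced by low oxygen, and HIF1A. Of the 33, 32 were counted often enough to be tested, among 13520 tested genes of the 23368 in the table. BNIP3L, a mitophagy receptor, had a single count in 5 libraries and none in the others, and was not tested.

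Each tumor grew in a castrated athymic nude mouse (host strain HSD:Athymic Nude–Foxn1nu) inoculated with VCaP cells of passage p61, and dosing began once PSA in serum had returned to where it stood before castration. All mice, controls included, were therefore castrated, and all tumors derive from 1 cell line. Mice received vehicle (n = 15), enzalutamide (n = 14, of which 13 were used) or ARN-509 (n = 15) by gavage, once a day over 4 weeks, with a dose of 20 mg/kg/day for either antiandrogen. Libraries held 3.38 to 30.1 M counts, with medians of 5.71, 8.62 and 7.49 M in the 3 arms, and enzalutamide 4 was left out with 80142 counts. Vehicle 8 and vehicle 10 stood apart from the other vehicle tumors across genes of at least 50 CPM (counts scaled to a common library total) on average (r = 0.890 and 0.916 with the mean of their arm, at least 0.956 in the other libraries used), so results that rest on them are given without them. The prostate and luminal genes KLK2, KLK3, HOXB13, FOXA1, KRT8, KRT18, TMPRSS2 and ERG all reached the level for a test, whereas 2 of 10 endothelial, 4 of 12 fibroblast and 1 of 10 leukocyte markers did.

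Glycolysis splits glucose into pyruvate, and in most tumors much of the pyruvate is reduced to lactate even where oxygen is present. Under low oxygen the prolyl hydroxylases encoded by EGLN genes slow down, the HIF alpha proteins escape degradation, and with their partner ARNT they bind DNA and raise the transcription of glycolytic enzymes, glucose and lactate transporters, and genes of angiogenesis, pH control and collagen modification. HIF1A itself is governed mainly through the stability of its protein, so its messenger RNA is a poor gauge of its activity. In a bulk tumor, fewer cells of a type and less RNA per cell cannot be told apart.

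The question put to the data was whether the enzymes and the hypoxia-induced genes vary together from tumor to tumor, and whether either group differs between the arms. They varied together closely. When each gene's log2 CPM was centred within its arm and divided by its spread, the mean over the 16 enzymes and the mean over 11 hypoxia-induced genes had a Pearson r of 0.921 over 43 tumors (Spearman 0.940). Within arms r was 0.926 in vehicle, 0.954 in enzalutamide and 0.898 in ARN-509 tumors, and without the 2 tumors with the most extreme hypoxia score, vehicle 8 and vehicle 9, it was 0.910 over the rest. These values describe scores over genes chosen for a shared pathway with earlier results of these data known, and carry no p.

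**Figure D1:**
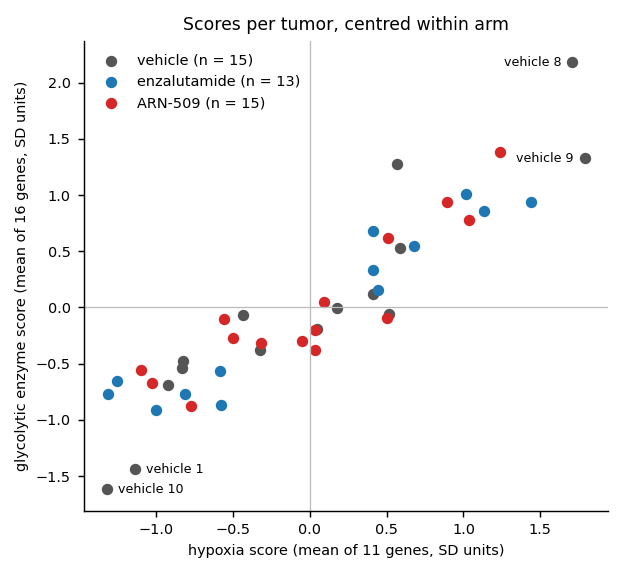
Mean of 16 glycolytic enzymes (vertical axis) against mean of 11 hypoxia-induced genes (horizontal axis), both in SD units from the arm mean, with 1 point per tumor and a color per arm. The points of all 3 arms lie along 1 diagonal (r = 0.921), with vehicle 8 and vehicle 9 at its upper end and vehicle 10 and vehicle 1 at its lower end.

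The tumors spread over a wide range in both scores. Hypoxia scores ran from -1.32 in vehicle 10 to 1.79 in vehicle 9, and enzyme scores from -1.62 in vehicle 10 to 2.18 in vehicle 8. Among the drug-treated tumors the highest hypoxia scores were 1.44 in enzalutamide 8 and 1.24 in ARN-509 4, and the lowest were -1.31 in enzalutamide 7 and -1.10 in ARN-509 3. Because values were centred within arms, the scores order the tumors of an arm and do not compare arms. The member genes were also among the more variable ones: the median SD of log2 CPM within an arm was 0.471 for the enzymes, 0.647 for the hypoxia-induced genes and 0.917 for the regulators and transporters, against 0.263 for all tested genes.

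**Figure D2:**
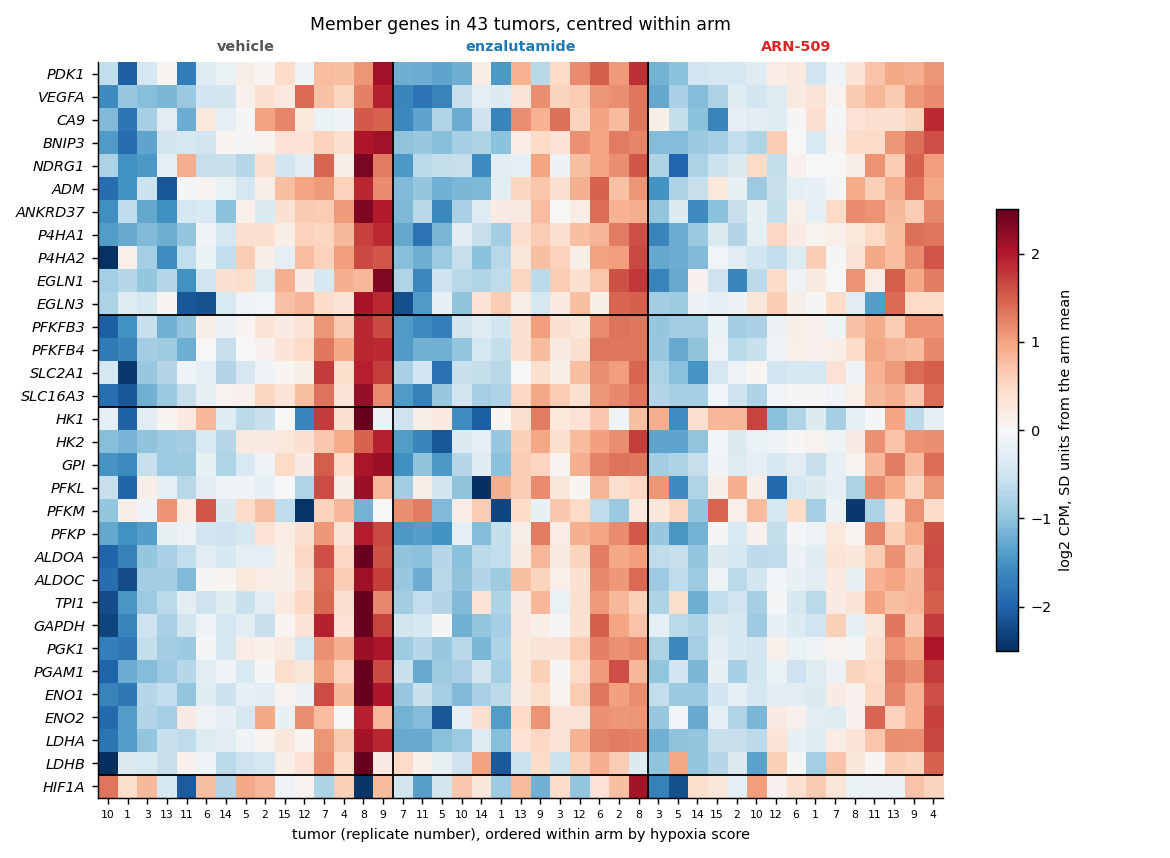
Log2 CPM of 32 member genes (rows, by role from the top: hypoxia-induced genes, regulators and transporters, enzymes, HIF1A) in 43 tumors (columns, ordered within arm by hypoxia score), in SD units from the arm mean. Most rows turn from blue to red together from left to right within each arm, while HK1, PFKM and HIF1A do not follow that order.

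To test single genes, the level of PDK1 was entered as a covariate beside arm in 1 edgeR quasi-likelihood fit of all genes, with Benjamini-Hochberg adjustment over the 13519 others. PDK1 encodes a pyruvate dehydrogenase kinase, a HIF target that inhibits pyruvate dehydrogenase in the mitochondria. It was the first of 4 candidate hypoxia markers with a median of at least 100 counts. PDK1 was measured at 56.9, 117 and 234 CPM (lowest, median and highest tumor) with vehicle, 59.2, 102 and 179.7 CPM with enzalutamide and 87.8, 127 and 191 CPM with ARN-509; the same order holds for the other genes. The 3 ranges overlapped. The slope of a gene is its log2 change per doubling of PDK1 between tumors of an arm.

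Of the 31 other members tested, 27 rose with PDK1 and 0 fell, while 4.93% of all genes had a positive slope that passed. All 10 hypoxia-induced genes passed, as did all 4 regulators and transporters and 13 of the 16 enzymes. HK1, PFKM, LDHB and HIF1A did not. The median slope was 1.11 for the hypoxia-induced genes, 1.52 for the regulators and transporters and 0.69 for the enzymes, against -0.01 for all genes. Once trends with GC content and length of the transcripts had been taken out of every library (in what follows, the GC and length trend), 29 of the 31 passed beside 8.48% of all genes, since LDHB (slope 0.22 ± 0.063, SE, edgeR adjusted p = 0.0117) and HIF1A (0.25 ± 0.060, edgeR adjusted p = 0.00357) then passed too. In an edgeR quasi-likelihood interaction test between slope and arm 0 members passed (lowest adjusted p = 0.606), beside 0% of all 13519 genes, and PGK1, ENO1 and BNIP3 had an unadjusted p under 0.05 (0.0212, 0.0323 and 0.0475); whether slopes differ between the arms was not settled.

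**Figure D3:**
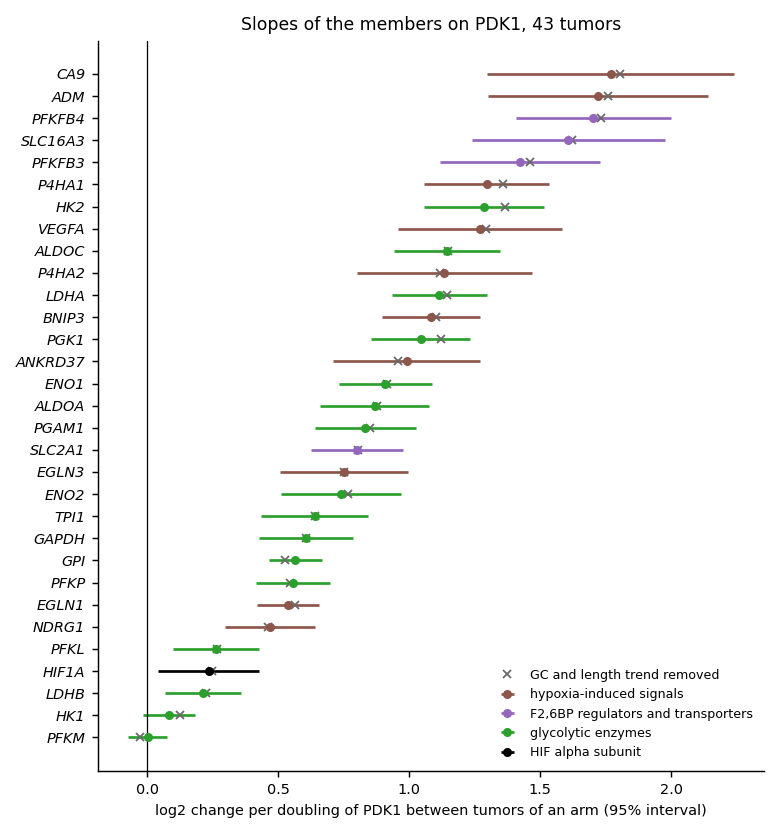
Slope of each member on PDK1 (horizontal axis, log2 change per doubling of PDK1, with 95% intervals) over 43 tumors, colored by role, with gray crosses for the slope after removal of the GC and length trend. CA9, ADM and PFKFB4 lie highest, near 1.7, and PFKM and HK1 lie nearest 0.

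In these promoters the letters of the hypoxia response element can be looked at directly. HIF binds the core ACGTG, or less often GCGTG, and the 250 bases before the start were searched on both strands in the RefSeq promoters of GRCh38.p14, which matched 30 of the 33 members by symbol. No entry matched VEGFA, BNIP3L or NDRG1. ACGTG occurred in 13 of the 30 promoters (43.3%), in 8 of 16 enzymes, 5 of 9 hypoxia-induced genes and 0 of 4 regulators and transporters. Of all 35116 promoters 18.5% held it, and 23.5% of the 9402 promoters of tested genes. GCGTG occurred in 10 of 30 (33.3%), against 45.9% for tested genes. A CACGTG counts once on each strand. The following 60-base stretches show ACGTG, read on either strand, in capitals, in 3 hypoxia-induced genes and 3 enzymes that rose with PDK1, so that the letters shared by the 2 groups can be seen.
CA9: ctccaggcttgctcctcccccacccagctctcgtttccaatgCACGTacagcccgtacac
ANKRD37: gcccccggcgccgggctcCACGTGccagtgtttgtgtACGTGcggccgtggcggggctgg
BNIP3: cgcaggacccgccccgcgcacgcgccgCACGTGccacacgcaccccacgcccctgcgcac
LDHA: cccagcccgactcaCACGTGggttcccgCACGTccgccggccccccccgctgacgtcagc
PGK1: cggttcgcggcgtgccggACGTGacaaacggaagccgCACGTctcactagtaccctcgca
ALDOA: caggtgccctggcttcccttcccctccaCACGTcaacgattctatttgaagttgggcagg

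Each stretch reads 5′ to 3′ along its gene. On GRCh38.p14 the first 3 are chr9:35673868-35673927 for CA9 (plus strand, bases 60 to 1 before the start), chr4:185396661-185396720 for ANKRD37 (plus strand, bases 180 to 121 before the start) and chr10:131982025-131982084 for BNIP3 (minus strand, bases 161 to 102 before the start). The enzymes are chr11:18394462-18394521 for LDHA (plus strand, bases 101 to 42 before the start), chrX:78104028-78104087 for PGK1 (plus strand, bases 220 to 161 before the start) and chr16:30064073-30064132 for ALDOA (plus strand, bases 206 to 147 before the start). LDHA held 5 ACGTG in its 250 bases, counting both strands, more than any other member. The promoters of HK1, PFKM, PFKL, LDHB and HIF1A, the members with the flattest slopes on PDK1, held none. Neither did those of PFKP, TPI1, PGAM1, ENO1, PFKFB3, PFKFB4, SLC2A1, SLC16A3, PDK1, ADM, P4HA2 and EGLN3, which include some of the steepest. A match describes the sequence and not binding, and no match says only that these letters are not in this window.

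Among the hypoxia-induced genes, the widest ranges between lowest and highest tumor were those of CA9 (59.6-fold), ADM (27.9-fold) and VEGFA (11.6-fold). P4HA2 followed closely at 11.3-fold. VEGFA, the main growth factor of blood vessels, had 98.6, 258 and 738 CPM with vehicle, 63.6, 226 and 399 with enzalutamide and 112, 244 and 457 with ARN-509. ADM, which encodes the vasodilator peptide adrenomedullin, had 0.414, 2.88 and 11.5 CPM with vehicle, 1.28, 4.49 and 10.3 with enzalutamide and 1.05, 3.08 and 9.99 with ARN-509. CA9 encodes a membrane carbonic anhydrase that acts in pH control. It had 0.0869, 0.710 and 2.54 CPM with vehicle, 0.210, 1.62 and 2.95 with enzalutamide and 0.302, 1.37 and 5.17 with ARN-509. CA9 was close to the limit of counting in these libraries, with a median of 9 counts, so its levels carry wide counting error. ADM was low too, with medians of 24, 37 and 36 counts in vehicle, enzalutamide and ARN-509 tumors. The width of both ranges rests in part on low counts. Slopes on PDK1 were 1.27 ± 0.15 (SE) for VEGFA, 1.72 ± 0.21 for ADM and 1.77 ± 0.23 for CA9 (edgeR adjusted p = 6.34e-08, 5.39e-08 and 4.24e-07). The ranges of all 3 genes overlapped between the arms.

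P4HA1 and P4HA2 encode the catalytic subunits of collagen prolyl 4-hydroxylase, which stabilizes collagen helices. P4HA1 had 51.4, 117 and 287 CPM with vehicle, 33.6, 110.4 and 207 with enzalutamide and 45.3, 115 and 223 with ARN-509. P4HA2 had 2.48, 11.6 and 28.1 CPM with vehicle, 4.01, 9.05 and 21.5 with enzalutamide and 4.29, 8.76 and 22.7 with ARN-509. In each gene the lowest tumors were vehicle 10, enzalutamide 11 and ARN-509 3, all with low scores, and the slopes were 1.30 ± 0.12 and 1.13 ± 0.17. BNIP3, a mitophagy receptor of the outer mitochondrial membrane, had 91.4, 213 and 502 CPM with vehicle, 115, 195 and 314 with enzalutamide and 128, 202 and 402 with ARN-509. NDRG1, a stress-induced gene that androgen also induces, had 2172, 2961 and 5724 CPM with vehicle, 2205, 3091 and 4845 with enzalutamide and 1728, 2852 and 4121 with ARN-509. NDRG1 had the flattest slope among the hypoxia-induced genes, 0.47 ± 0.086, less than that of BNIP3 at 1.08 ± 0.093.

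EGLN1 and EGLN3 encode oxygen-sensing prolyl hydroxylases that mark HIF alpha for destruction and are themselves HIF targets. EGLN1 had 43.7, 56.9 and 103 CPM with vehicle, 34.4, 44.1 and 73.1 with enzalutamide and 38.9, 57.6 and 78.6 with ARN-509. EGLN3 had 3.26, 7.46 and 17.0 CPM with vehicle, 2.47, 6.32 and 10.6 with enzalutamide and 3.37, 5.86 and 10.0 with ARN-509. EGLN1 varied less, with a slope of 0.54 ± 0.058, and EGLN3 had 0.75 ± 0.12. ANKRD37, an ankyrin repeat gene known as a direct HIF target, had 3.92, 6.84 and 23.2 CPM with vehicle, 2.49, 5.82 and 10.2 with enzalutamide and 2.90, 5.57 and 10.6 with ARN-509. Its slope was 0.99 ± 0.14. Correlations of these genes with PDK1 ran from 0.656 for NDRG1 to 0.870 for BNIP3 over 43 tumors (permutation of tumors within arm, 100000 draws, adjusted over 13519 genes: p = 0.0019 for NDRG1, 0.00139 for P4HA2 and 0.000824 for the rest).

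HIF1A encodes the alpha subunit itself. HIF1A had 46.8, 92.2 and 114 CPM with vehicle, 54.5, 80.1 and 122 with enzalutamide and 56.9, 103 and 122 with ARN-509. Vehicle 8, with the highest enzyme score of all, had the lowest HIF1A of the 43 tumors, and vehicle 10, with the lowest enzyme score, had the highest of its arm. Its slope on PDK1 was 0.23 ± 0.096 (edgeR adjusted p = 0.131), with 0.01 in vehicle, 0.36 in enzalutamide and 0.37 in ARN-509 tumors, a difference between arms that did not pass (edgeR adjusted p = 0.637). The median r of HIF1A with the 16 enzymes was -0.01 and with the 11 hypoxia-induced genes 0.208. Both medians moved to 0.379 and 0.479 once the GC and length trend was removed. Without vehicle 8 and vehicle 10 its slope on PDK1 was 0.30 and passed (edgeR adjusted p = 0.0253).

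The regulators and transporters were the steepest group. PFKFB3 and PFKFB4 make fructose 2,6-bisphosphate, the strongest activator of phosphofructokinase, and PFKFB3 ranged from 23.7 to 255 CPM and PFKFB4 from 16.9 to 195 CPM over all tumors. SLC16A3, the lactate exporter MCT4, ranged from 5.91 CPM in vehicle 1 to 116 CPM in vehicle 8, and SLC2A1, the glucose transporter GLUT1, from 31.0 to 134 CPM. Slopes on PDK1 were 1.42 ± 0.15 for PFKFB3, 1.70 ± 0.15 for PFKFB4, 1.61 ± 0.18 for SLC16A3 and 0.80 ± 0.087 for SLC2A1, with edgeR adjusted p of at most 1.26e-08. Their median r with single enzymes, over 64 pairs, was 0.892.

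Along the pathway, isoenzymes of 1 step behaved unequally between tumors. Hexokinase, the first step, phosphorylates glucose; HK1 is the widespread form and HK2 the form induced by hypoxia and growth signals. HK1 had 133, 162 and 215 CPM with vehicle, 123, 157 and 175 with enzalutamide and 113, 129.7 and 159 with ARN-509. HK2 had 41.8, 85.4 and 208 CPM with vehicle, 20.8, 77.9 and 154 with enzalutamide and 38.9, 75.2 and 142 with ARN-509. HK2 rose with PDK1 with a slope of 1.29 ± 0.11 (edgeR adjusted p = 1.42e-11), and HK1 had 0.08 ± 0.050 (0.329). The log2 ratio of HK2 to HK1 had r = 0.846 with PDK1 over 43 tumors.

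Phosphofructokinase, the committed step, has muscle, liver and platelet forms. PFKM had 202, 239.7 and 263 CPM with vehicle, 209, 248 and 265 with enzalutamide and 202, 241 and 260.3 with ARN-509. PFKL had 138, 203 and 322 CPM with vehicle, 119.5, 218 and 262 with enzalutamide and 121, 187 and 230.0 with ARN-509. PFKP had 99.4, 139 and 233 CPM with vehicle, 99.6, 149.7 and 209.9 with enzalutamide and 97.1, 138 and 205 with ARN-509. PFKM was the steadiest member, with an SD at percentile 0.325 of all tested genes, and a slope of 0.00 ± 0.036. PFKP rose with PDK1 (0.56 ± 0.070, edgeR adjusted p = 1.37e-07), and so did PFKL, weakly (0.26 ± 0.081, edgeR adjusted p = 0.035), a call that was lost without vehicle 8 and vehicle 10 (0.23, edgeR adjusted p = 0.0755). The ratio of PFKP to PFKM had r = 0.738 with PDK1.

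Aldolase cleaves fructose 1,6-bisphosphate. ALDOA had 229.8, 447 and 1362 CPM with vehicle, 306, 491 and 725 with enzalutamide and 272, 349.9 and 716 with ARN-509. ALDOC had 19.8, 57.5 and 139 CPM with vehicle, 28.4, 52.4 and 93.4 with enzalutamide and 32.2, 44.7 and 97.9 with ARN-509. Both rose with PDK1, ALDOA at 0.87 ± 0.10 and ALDOC, the brain form, at 1.14 ± 0.10 (edgeR adjusted p = 3.72e-08 and 1.42e-11), and their ratio had r = 0.674 with PDK1. GPI, which precedes phosphofructokinase, had a slope of 0.57 ± 0.050 with a correlation of 0.885. In the lower part of the pathway TPI1, GAPDH, PGK1 and PGAM1 had slopes of 0.64 ± 0.10, 0.61 ± 0.088, 1.04 ± 0.094 and 0.83 ± 0.096, each with an edgeR adjusted p of at most 1.52e-05. TPI1 had 333, 602 and 1828 CPM with vehicle, 447, 667 and 863 with enzalutamide and 374, 535 and 859 with ARN-509.

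Enolase has the widespread form ENO1 and the neuronal form ENO2, also used as a neuroendocrine marker. ENO1 had 908, 1571 and 4541 CPM with vehicle, 959, 1479 and 2320.0 with enzalutamide and 904, 1148 and 2268 with ARN-509. ENO2 had 20.1, 39.0 and 82.1 CPM with vehicle, 23.3, 56.4 and 75.8 with enzalutamide and 37.3, 57.4 and 109 with ARN-509. Both forms rose with PDK1 at similar slopes (0.91 ± 0.089 and 0.74 ± 0.11), and their ratio had r = -0.209 with it. Lactate dehydrogenase, which regenerates NAD by making lactate, joins LDHA and LDHB subunits. LDHA had 396, 828 and 2136 CPM with vehicle, 432, 856 and 1298 with enzalutamide and 450.4, 693 and 1550.3 with ARN-509. LDHB had 406, 632 and 1132 CPM with vehicle, 457, 669 and 777 with enzalutamide and 476, 602 and 768 with ARN-509. LDHA had a slope of 1.12 ± 0.090 (edgeR adjusted p = 3.68e-12), the smallest p of all 13519 genes, and LDHB 0.21 ± 0.071 (0.0535). Their ratio had r = 0.900 with PDK1.

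These ratios of 7 pairs of isoenzymes were examined after the levels had been seen. They are formed from the same levels as the slopes on PDK1 above, so their tests largely repeat those slopes. By permutation of tumors within arm (100000 draws, two-sided, adjusted over 7), HK2/HK1, PFKP/PFKM, ALDOC/ALDOA and LDHA/LDHB varied with PDK1 at p = 1.75e-05 each, from a raw p of 1e-05, the smallest these draws can give. PFKP/PFKL had r = 0.527 (p = 0.00108), PFKL/PFKM 0.419 (0.00937) and ENO2/ENO1 -0.209 (0.209). Spearman correlations were 0.859, 0.733, 0.624, 0.885, 0.525, 0.442 and -0.144 in the same order. Without vehicle 1 and vehicle 9, the most extreme in PDK1, r ranged from 0.332 for PFKL/PFKM to 0.879 for LDHA/LDHB among the 6 that passed.

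**Figure D4:**
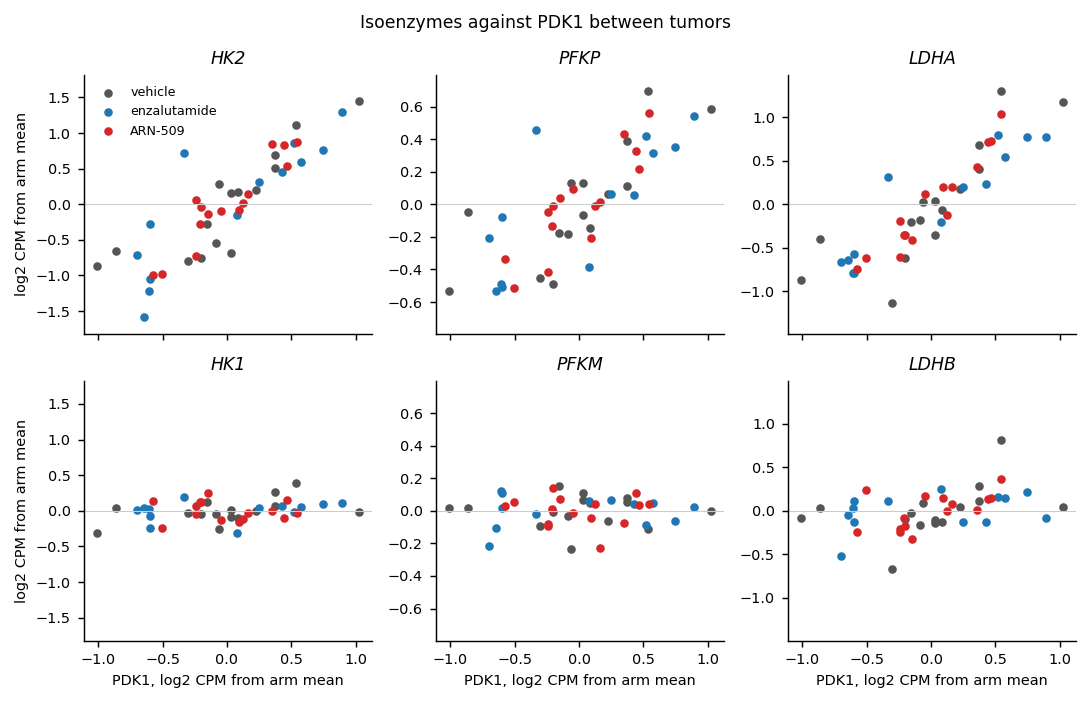
Log2 CPM of HK2, PFKP and LDHA (top) and of HK1, PFKM and LDHB (bottom) against that of PDK1, all centred within arm, with 1 point per tumor and the same vertical scale for the isoenzymes of a step. The upper genes climb with PDK1 in all 3 arms (slopes 1.29, 0.56 and 1.12), and the lower ones have flatter slopes (0.08, 0.00 and 0.21).

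Correlations between single genes were set side by side within and across the groups. The median r was 0.810 over 120 pairs of enzymes, 0.770 over 55 pairs of hypoxia-induced genes and 0.785 over 176 pairs with a gene from each group, of which 44.3% reached 0.8. Over all pairs of tested genes the median was -0.0019 and 0.332% reached 0.8. HK1, PFKM, PFKL and LDHB had the lowest median r with the hypoxia-induced genes among the enzymes (0.252, -0.11, 0.506 and 0.478). The same relation was also tested from the enzyme side, with TPI1 as the covariate: 29 of 31 members passed with a positive slope, all but PFKM and HIF1A. HK1 passed narrowly (0.12 ± 0.052, edgeR adjusted p = 0.0477) and lost its call without vehicle 8 and vehicle 10 (0.06, 0.51) and under library totals, DESeq2 size factors, no filter, limma voom and the replicate block. Without both tumors 28 members passed, and 1782 genes in all had a positive slope in place of 3445. That fit says less about the members, because 25.5% of all genes had a positive slope on TPI1 that passed, and 21.3% after removal of the GC and length trend, when 28 of the 31 had one and PFKM a negative slope (-0.14 ± 0.053, edgeR adjusted p = 0.0307).

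The genes that most resembled PDK1 outside the members were largely hypoxia genes. By smallest p they were PLOD2 (slope 1.92, r = 0.875), AK4 (0.69, 0.872), KDM3A (0.73, 0.860), STC1 (0.94, 0.853), INSIG2 (0.58, 0.852), NRN1 (1.38, 0.841), FUT11 (1.05, 0.823), PKM2 (0.73, 0.829), LYPD6 (1.24, 0.816) and BHLHE40 (2.26, 0.829), over 43 tumors. PLOD2 is a collagen lysyl hydroxylase, KDM3A a histone demethylase, BHLHE40 a transcriptional repressor, and PKM2 is the table's symbol for pyruvate kinase M, the step that yields pyruvate. Of these 10, 6 stand on the list of other hypoxia-induced genes, of which 23 of 34 tested rose with PDK1 and 0 fell. That list, like the members, was chosen with earlier results of these data known, so these counts are not independent of them. Of 28 other genes of glycolysis and pyruvate metabolism 5 rose and 1 fell, among the risen PKM2, PGM1 (0.66), PGAM4 (0.88) and PDK3 (0.46). PGAM4 is a near-identical copy of PGAM1, so reads of both are uncertain, and GAPDH, ENO1, LDHA, LDHB, PGK1, TPI1 and ALDOA have processed pseudogenes that could share reads.

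Genes of neighboring pathways rose with PDK1 about as often as genes in general (4.93%). In the pentose phosphate pathway 1 of 9 genes rose (11.1%), PGD (0.18 ± 0.060, edgeR adjusted p = 0.0489), in the TCA cycle 1 of 21 (4.76%), IDH2 (0.30 ± 0.074, 0.00688), and among regulators of HIF 1 of 12 (8.33%), the ubiquitin ligase SIAH2 (0.29 ± 0.081, 0.0162). Proliferation genes moved with the hypoxia-induced ones: 9 of 10 rose with PDK1, for example the replicative helicase genes MCM3 (0.33) and MCM2 (0.35), CCNB1 (0.46) and CDK1 (0.43). Their summed CPM had r = 0.624 with the hypoxia score and 0.605 with the enzyme score. The summed CPM of the pentose phosphate pathway had 0.432 and 0.679, and that of the TCA cycle 0.462 and 0.671. With TPI1 in place of PDK1, 7 of 9 and 10 of 21 of their genes rose, beside 25.5% of all genes. With the proliferation sum as a further covariate, 25 of the 31 members still passed. In that setting 162 genes in all had a positive slope on PDK1 that passed, in place of 667.

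Several other measures moved with the scores, and their part in the result was not tested. The slope of a library with GC content had r = 0.199 with the hypoxia score and 0.423 with the enzyme score, the slope with length -0.24 and -0.438, and the TMM factor -0.358 and -0.545. Sequencing depth had -0.0589 and -0.0632. With these trends removed the r between the scores was 0.951. Summed endothelial, fibroblast and leukocyte markers had r of 0.0315, -0.112 and -0.155 with the hypoxia score, and skeletal muscle markers 0.325. Those sums ran from 30.9 to 65.6 CPM for endothelial, 15.6 to 47.3 CPM for fibroblast, 4.08 to 11.2 CPM for leukocyte and 10.6 to 47.0 CPM for muscle markers over all tumors. The markers CDH5, DCN and PTPRC had a median of 0 CPM. The highest medians of the 4 lists were 41.7 CPM for ENG, 12.3 for ACTA2, 5.44 for CD68 and 14.1 for MB. Each sum thus rests largely on few genes and is a poor measure of cell content. The stroma of these xenografts also comes from the mouse host, while the genome used was human (hg19).

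Few members passed the threshold between the arms. As groups they varied more within arms than genes in general, which makes a given change harder to call. Under enzalutamide 0 of the 32 members passed against vehicle (edgeR quasi-likelihood test, adjusted over 13520 genes), while 10.8% of all genes did. At an unadjusted p under 0.05 there were 3: ANKRD37 (log2 fold change -0.69 ± 0.24, adjusted p = 0.0557), EGLN1 (-0.31 ± 0.12, 0.0873) and EGLN3 (-0.40 ± 0.19, 0.194). DESeq2 called 1 of them, ANKRD37 (-0.70, adjusted p = 0.0319), as did edgeR with the GC and length trend removed (-0.71, 0.0251), and limma voom called 0. The median over the members was -0.19, against -0.00 for all genes, and 7 of the 32 lay above 0. The 95% intervals stayed within a 2-fold change for 28 members, all but ANKRD37, CA9, P4HA2 and PFKFB4, and within 1.5-fold for 13.

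Under ARN-509, 5 of 32 members passed against vehicle, beside 30.8% of all genes. The 5 were among the 16 enzymes, a share of 31.2% that lies at that background: HK1 fell by 0.31 ± 0.058 on the log2 scale (edgeR adjusted p = 9.18e-05), GPI by 0.30 ± 0.11 (0.0381), GAPDH by 0.41 ± 0.14 (0.0276) and ENO1 by 0.55 ± 0.19 (0.0222), while ENO2 rose by 0.51 ± 0.18 (0.0258). GPI had 603, 818 and 1357 CPM with vehicle, 539.5, 763 and 1010.5 with enzalutamide and 585, 670.1 and 957 with ARN-509. GAPDH had 2359, 4189 and 9872 CPM with vehicle, 2988, 4141 and 6397 with enzalutamide and 2740.1, 3319 and 5798 with ARN-509. Both ranges overlapped between arms, with the high end set by vehicle tumors. The 11 enzymes that did not pass had log2 differences from -0.41 for ALDOA to -0.00 for PFKM, and among 11 hypoxia-induced genes, none of which passed, differences ran from -0.50 for ANKRD37 to 0.76 for CA9. Intervals stayed within 2-fold for 30 of 32 members, all but CA9 and PFKFB4, and within 1.5-fold for 13.

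HK1 was the only one of the 5 calls that held without each single tumor and after removal of the GC and length trend; without single tumors its difference ran from -0.33 to -0.28. ENO1 lost its call without vehicle 8 or vehicle 9, GAPDH without vehicle 7, 8 or 9, ENO2 without ARN-509 4, and GPI in 13 of the 43 fits. With the GC and length trend removed GPI was at -0.12 (edgeR adjusted p = 0.413) and GAPDH at -0.30 (0.0796), and the HIF hydroxylase gene EGLN3 then passed (-0.51, 0.0408). The count of called members was 2 without vehicle 8, 2 without vehicle 9, 3 without vehicle 7 and 8 without vehicle 10.

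**Figure D5:**
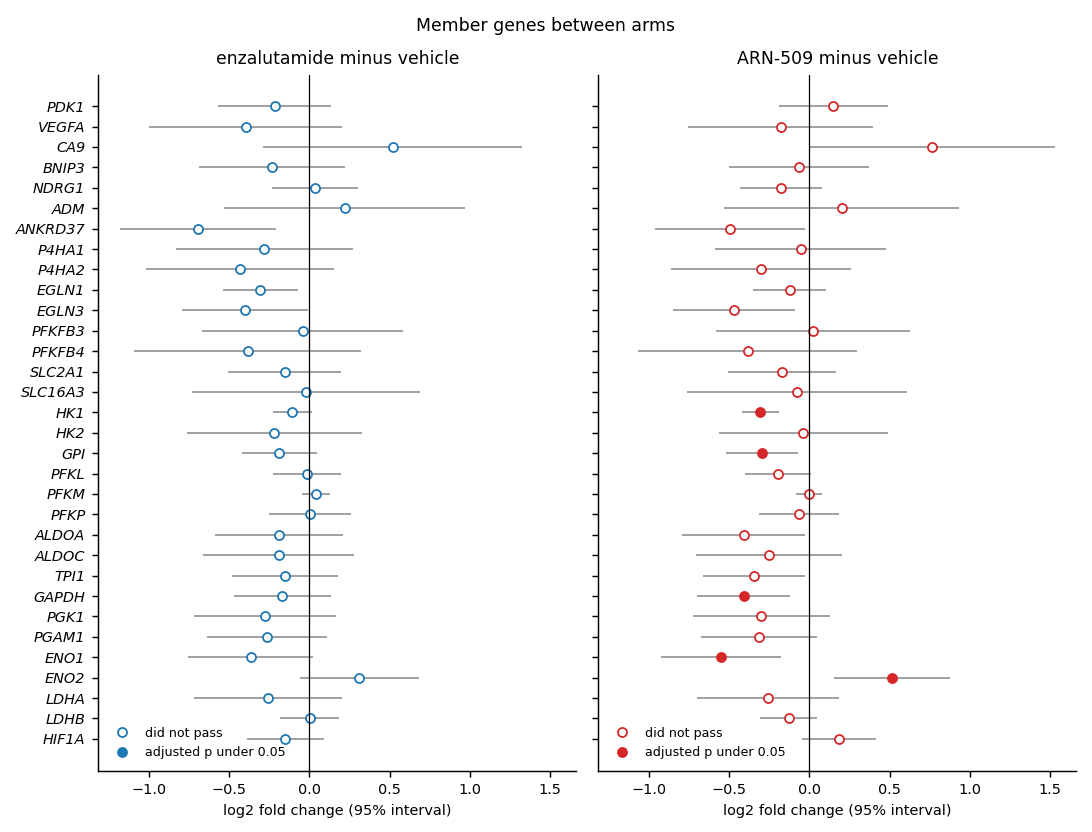
Log2 fold change against vehicle with 95% intervals for 32 members (rows) under enzalutamide (left) and ARN-509 (right), filled where the edgeR adjusted p was under 0.05. No symbol is filled under enzalutamide; under ARN-509 HK1, GPI, GAPDH and ENO1 are filled below 0 and ENO2 above 0. The 2 panels share the vehicle tumors.

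The enolase forms moved apart between the arms. The ratio of ENO2 to ENO1 counts, which compares tumors and not the forms since it is not divided by length, was 0.0153, 0.0219 and 0.0378 (lowest, median, highest) in vehicle tumors. It was 0.0222, 0.0342 and 0.0549 under enzalutamide and 0.0359, 0.0466 and 0.0652 under ARN-509. Of the 15 ARN-509 tumors 13 lay above every vehicle tumor, and 5 of 13 enzalutamide tumors did. On the log2 scale the ratio was higher by 0.98 ± 0.13 (SE) under ARN-509 and by 0.58 ± 0.14 under enzalutamide than in vehicle, and lower by 0.40 ± 0.12 under enzalutamide than under ARN-509. Permutation of arm labels (100000 draws, two-sided) gave adjusted p of 0.00021, 0.00598 and 0.0142 over 21 tests, which were 7 isoenzyme ratios in 3 comparisons. The ratio was singled out after its values were seen. It is formed from the same ENO1 and ENO2 levels as the fold changes above, whose calls under ARN-509 were each lost without some single tumors. It was taken without removal of the GC and length trend, and the 2 genes differ in transcript length (637 bases for ENO1, 1911 for ENO2). None of the other 6 ratios passed in any comparison (lowest adjusted p 0.0772, ALDOC/ALDOA between the drugs).

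Between the drugs at equal dose, 2 of 32 members passed, against 26.8% of all genes. HK1 was higher under enzalutamide than under ARN-509 by 0.20 ± 0.060 on the log2 scale (edgeR adjusted p = 0.0139), and HIF1A was lower by 0.34 ± 0.12 (0.0326). The HIF1A call was lost with the GC and length trend removed (-0.08, edgeR adjusted p = 0.558) and in 7 of the 43 fits without a single tumor. Intervals stayed within 2-fold for all 32 members and within 1.5-fold for 19.

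Since the tumors differ so widely along 1 axis, the arms were also compared at equal PDK1, a fit added after the relation had been seen. There 18 of 31 members were lower and 1 higher under ARN-509 than in vehicle, beside 34.4% of all genes in either direction. Of the 18, 11 were enzymes, among them ENO1 (-0.65 ± 0.10, edgeR adjusted p = 5.75e-06), GPI (-0.38 ± 0.058, 2.32e-06), ALDOA (-0.52 ± 0.12, 0.000971), LDHA (-0.44 ± 0.11, 0.00136) and PGK1 (-0.44 ± 0.11, 0.00195), and 5 were hypoxia-induced genes. ENO2 was the gene that was higher (0.36 ± 0.13, 0.0327). PDK1 itself was higher by 0.15 ± 0.17 under ARN-509 than in vehicle and did not pass (edgeR adjusted p = 0.515). That difference enters each of these values. The count depends on the gene held equal: with BNIP3 11 members were lower and 2 higher (33.9% of all genes), with VEGFA 9 lower and 2 higher (32.3%), and with PDK1 after removal of the GC and length trend 12 lower and 2 higher (32.8%). Enzymes made up 9, 7 and 9 of the lower members in these 3 fits. With VEGFA held equal, the share of members called lay near that of all genes.

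The drugs compared at equal PDK1 gave 18 members higher and 0 lower under enzalutamide than under ARN-509, beside 28.6% of all genes, and 10 higher after removal of the GC and length trend, beside 19.5%. With BNIP3 held equal 9 members were higher and 2 lower, beside 34.8% of all genes, and with VEGFA 8 higher and 1 lower, beside 33.2%, so that these shares of 31 members lay near the background. PDK1 itself had a difference of -0.37 ± 0.18 between these arms (edgeR adjusted p = 0.109), which enters each difference at equal PDK1. At equal PDK1 enzalutamide and vehicle differed in 1 of 31 members, beside 9.14% of all genes: ENO2 was higher by 0.47 ± 0.14 (edgeR adjusted p = 0.021).

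Some related genes outside the members passed under both drugs. SLC2A3, the glucose transporter GLUT3, fell by 1.94 ± 0.28 on the log2 scale under enzalutamide and by 1.78 ± 0.26 under ARN-509 (edgeR adjusted p = 1.41e-06 and 1.43e-06), and SLC2A12, another transporter of the family, rose by 0.71 ± 0.15 and 1.05 ± 0.15 (0.000977 and 5.6e-07). FBP1, which runs the phosphofructokinase step backward in gluconeogenesis, fell by 0.42 ± 0.089 and 0.57 ± 0.086. Of 28 tested genes of glycolysis and pyruvate metabolism outside the members 2 rose and 3 fell under enzalutamide (17.9%, beside 10.8% of all genes), and 4 rose and 6 fell under ARN-509 (35.7%, beside 30.8%). Among 34 other hypoxia-induced genes 1 fell under enzalutamide (2.94%), the collagen crosslinking enzyme LOX (-1.55 ± 0.25), and 8 rose and 3 fell under ARN-509 (32.4%, near the 30.8% of all genes), LOX again at -1.70 ± 0.24. LOX is also made by fibroblasts, whose markers fell in 1 of 4 under enzalutamide and 3 of 4 under ARN-509. In these xenografts fibroblasts come from the mouse host, while the genome used was human (hg19), so the markers are a poor measure of them. The part of fibroblasts in the LOX change was not tested. Under ARN-509, 6 of 9 genes of the pentose phosphate pathway and 12 of 21 of the TCA cycle fell and 0 rose, while 16.1% of all genes fell and 14.7% rose. The 2 comparisons share the vehicle tumors.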

How the data were processed

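RNA from 44 VCaP xenograft tumors was sequenced from TruSeq RNA v2 libraries, a kit that keeps no strand information. The authors deposited 1 table of whole-number read counts per gene. The authors used HTSeq 0.6.1, TopHat2 2.1.0, Picard 1.77 and bcl2fastq 1.8.4 with hg19, per the submitters' processing notes. How mouse reads were treated, which annotation was counted and with what strand setting is not given in the sources used here. The members and lists were chosen with earlier results of these data known.

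From the counts, edgeR 4.0.16 in R 4.3.3 was fitted to 43 libraries (TMM scaling, edgeR's filter on low counts by arm, robust quasi-likelihood test, arm as the only term). P-values were adjusted by Benjamini-Hochberg over 13520 genes, with a threshold of 0.05, and CPM are of the TMM-scaled total. No 2 libraries of an arm agreed within sampling noise (lowest chi-square per degree of freedom 3.32). The slope fits add the log2 CPM (prior count 2) of PDK1 or TPI1, centred within arm. TPI1 was the first of 3 candidate enzymes with a median of at least 100 counts. The comparisons at equal PDK1, BNIP3 or VEGFA use the level without that centring. GC content and length were matched by symbol for 95.73% of tested genes. The fits were tested on simulated data. Alternatives were other scalings and filters, DESeq2 1.42.0, limma 3.58.1, a replicate block, removal of the GC and length trend, and leaving out each tumor. Values by arm are given for members called, for PDK1 and TPI1, for isoenzyme pairs and for hypoxia-induced members, and of each other list up to 4 genes with the smallest p are named. Permutations used Python 3.11.15 and SciPy 1.17.1. Some marker genes are not reported here.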

Additional observations from a re-analysis of the deposited data

How the results depend on the processing

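Of 2638 values recomputed under other settings, 2454 kept their direction and their side of the threshold and 9 reversed, and of 6794 recomputed without 1 tumor, 6696 did and 0 reversed. Members rising with PDK1 numbered 26 to 28 and with TPI1 28 to 29 without single tumors. In place of PDK1, 28 rose with BNIP3 and 28 with VEGFA. Over all genes 1551 rose with BNIP3 and 1130 with VEGFA, against 667 with PDK1. The r between the scores was 0.916 to 0.930 without single tumors, 0.951 with the GC and length trend removed and 0.954 without division by each gene's SD. A second hypoxia marker in place of PDK1, planned beside that for TPI1, could not be run, since no other candidate had a median of 100 counts. The cause of the changes below was not tested.

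Members called under ARN-509 against vehicle numbered 2 to 8 without single tumors and 3 with enzalutamide 4 included. Under enzalutamide against vehicle they numbered 0 to 2 without single tumors, 1 with the GC and length trend removed and 1 with DESeq2. Between the drugs they numbered 1 to 3 without single tumors, 1 with enzalutamide 4 included and 1 with the trend removed. The settings that follow were chosen after seeing the data. With the trend removed and without vehicle 8 and vehicle 10, the counts were 2, 1 and 1. With PDK1, BNIP3 or VEGFA as a covariate they were 19, 13 and 11 for ARN-509 against vehicle, 1, 4 and 4 for enzalutamide against vehicle and 18, 11 and 9 between the drugs. With the trend removed as well they were 14, 13 and 12, then 2, 3 and 5, then 10, 5 and 8. These counts are out of 31 members. Of all genes 34.4%, 33.9% and 32.3% were called, then 9.14%, 11.6% and 10.3%, then 28.6%, 34.8% and 33.2%. The shares with the trend removed were 32.8%, 31% and 30.9%, then 12.6%, 14.9% and 11.7%, then 19.5%, 20.1% and 13.4%. Several member counts lay near or below these shares.

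The reversed values all came from these added settings. Between the drugs, PFKFB3 was at 0.52 and BNIP3 at 0.31 with PDK1 as a covariate. With the trend removed too, HIF1A was at 0.0032 with PDK1, and at 0.0035 with VEGFA, where P4HA1 was at 0.39. Under enzalutamide PFKFB3 was at 0.34 with VEGFA and at 0.35 with the trend removed as well. Under ARN-509 SLC16A3 was at 0.37 with BNIP3 and the trend removed. The slope of HIF1A on TPI1 was 0.30 with the trend removed and without vehicle 8 and vehicle 10.

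Counts over all genes moved more. Under enzalutamide 1455 genes were called and 2547 with limma. Between the drugs 3623 were called, 5707 with limma, 1500 with the trend removed, 2339 also without vehicle 8 and vehicle 10, and 1731 with VEGFA and the trend removed. On PDK1 1083 were called, 1863 with the trend removed, 140 with the replicate block, 188 with proliferation genes as a covariate, 2925 on BNIP3 and 2143 on VEGFA. On TPI1 6935 were called, 3625 without vehicle 8 and vehicle 10, 4605 with the block and 2784 with the trend removed and without both. Scaling by library totals alone gave 2713 genes up and 1466 down under ARN-509, against 1988 and 2178.

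Replicate numbers did not pair the tumors of different arms: the median correlation of same-numbered tumors was -0.017, 0.052 and -0.0037 over the 3 pairs of arms. With the replicate block the count between the drugs was 1, and 24 members rose with PDK1 and 27 with TPI1. CA9, with a median of 9 counts, is limited by depth.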
